A study of Homo sapiens with 6 samples.

Results

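Ewing sarcoma cell surface antigens are membrane proteins by which these tumours are recognised, in diagnosis or as targets of antibodies and engineered T cells. The set described here was 8 genes given by name, CD99, STEAP1, STEAP2, LINGO1, IL1RAP, ADGRG2, ENPP1 and LIPI, and all 8 were found among the 62700 rows of the count table. CD99, which lies in a region shared by chromosomes X and Y, stood on 2 rows with identical counts and was counted once. Whether its reads were divided between the 2 rows is not known. Its levels, and shares that include it, may therefore be understated. RNA was sequenced from 3 libraries of the A673 line labelled as EWS-FLI1 knockout and from 3 libraries labelled as parental control. A673 is a human Ewing sarcoma line, and the series asked what this fusion oncoprotein does to gene expression and splicing. The labels do not say whether the knockout is a single clone or a pool, or whether replicates were separate cultures. Differences between clones and loss of the fusion therefore cannot be told apart, and a p-value here covers how far 3 libraries of a label scatter, possibly for technical reasons alone. Cells of both genotypes were grown in DMEM with serum, and polyadenylated RNA was sequenced.

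EWS-FLI1 joins the EWSR1 protein to the DNA-binding part of FLI1, an ETS factor that reads a GGAA core. As background, the fusion turns on many genes through runs of GGAA repeats, often far from the gene, and several of the antigens named here are known from other work as genes it activates. CD99 is the membrane glycoprotein stained in the diagnosis of Ewing sarcoma. STEAP1 and STEAP2 are multi-pass membrane proteins of a metal reductase family, LINGO1 and IL1RAP are receptor subunits, ADGRG2 is an adhesion G protein-coupled receptor, and ENPP1 and LIPI are enzymes that act on extracellular nucleotides and on phospholipids.

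The sequences just upstream of 4 of the genes are shown, namely STEAP1, STEAP2 and LIPI, whose outermost starts follow 4 GGAA cores, and ENPP1, the antigen that rose. Each is the 250 bases before an annotated start, from RefSeq on GRCh38.p14, written 5′ to 3′ on the strand of the gene, with GGAA or its reverse complement TTCC in capitals. They are STEAP1 at chr7:90154219-90154468 (plus strand), STEAP2 at chr7:90211490-90211739 (plus), LIPI at chr21:14210956-14211205 (minus) and ENPP1 at chr6:131807770-131808019 (plus).
STEAP1: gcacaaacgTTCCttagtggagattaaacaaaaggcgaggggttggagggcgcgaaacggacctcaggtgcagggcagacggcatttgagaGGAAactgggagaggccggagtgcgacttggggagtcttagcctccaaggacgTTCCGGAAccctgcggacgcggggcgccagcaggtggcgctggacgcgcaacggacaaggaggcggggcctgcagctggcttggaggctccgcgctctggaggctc
STEAP2: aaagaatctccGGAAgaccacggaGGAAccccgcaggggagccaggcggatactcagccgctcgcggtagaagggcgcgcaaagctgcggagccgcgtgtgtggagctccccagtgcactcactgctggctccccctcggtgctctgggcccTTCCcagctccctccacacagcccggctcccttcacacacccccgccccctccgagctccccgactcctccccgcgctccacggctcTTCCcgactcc
LIPI: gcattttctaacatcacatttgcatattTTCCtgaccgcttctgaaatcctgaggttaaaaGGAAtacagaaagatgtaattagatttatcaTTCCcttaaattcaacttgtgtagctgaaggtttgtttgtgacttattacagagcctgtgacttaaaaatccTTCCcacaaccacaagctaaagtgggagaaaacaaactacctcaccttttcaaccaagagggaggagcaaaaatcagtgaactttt
ENPP1: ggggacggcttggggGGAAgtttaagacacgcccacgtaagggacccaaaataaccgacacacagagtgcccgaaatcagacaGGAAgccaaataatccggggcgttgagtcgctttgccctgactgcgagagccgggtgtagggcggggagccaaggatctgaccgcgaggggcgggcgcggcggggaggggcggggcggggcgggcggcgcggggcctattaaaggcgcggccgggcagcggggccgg
STEAP1, STEAP2 and LIPI held 4 matches each in these windows, and ENPP1 held 2. GGAA was searched on both strands, and 92.7% of 35093 such windows over all genes held at least 1, with a median of 3 and 34.3% with 4 or more. The 8 genes have 18 windows in all, of which 16 held GGAA. LINGO1 has 9 of them, some overlapping, with between 0 and 4 matches. The longer core CCGGAA, which contains GGAA, was in 3 of the 18 (STEAP1, STEAP2 and LINGO1), against 14.5% of all windows. Back-to-back copies, GGAAGGAA, were in 0 of the 18, against 3.06% of all windows. These matches describe the letters of the windows and not binding.

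Library totals ran from 301605666 to 310465330 estimated counts in the knockout and from 324069161 to 342624492 in the parental group. Levels are given as CPM scaled by TMM factors, which correct for library composition, and fold changes are knockout over parental with a standard error (SE). EWSR1 held 240.6, 252.0 and 242.0 CPM in knockout libraries, against 300.0, 288.2 and 290.7 CPM in parental libraries, and FLI1 held 53.7, 54.8 and 50.8 CPM in knockout libraries, against 39.6, 41.9 and 40.6 CPM in parental libraries. These do not check the knockout, since a count per gene adds fusion and normal transcripts. Of 10 genes listed as Ewing sarcoma markers all 10 fell, against 37.5% of all tested genes. Their median was -6.15 (log2), a value subject to the limit on low shares given below. That list was chosen with earlier results of these data known, so it does not check the knockout either. Markers of other cell types, 6 genes a type, were mostly low. Blood markers summed to between 1.64 and 2.10 CPM in knockout and between 0.254 and 0.323 CPM in parental libraries, with MS4A1 at 0 counts and both tested genes higher. Skeletal muscle markers summed to between 1.91 and 2.56 CPM in knockout and between 1.78 and 2.14 CPM in parental libraries, and the 4 tested did not pass. Melanocytic markers summed to between 0.847 and 1.01 CPM in knockout and between 1.41 and 1.54 CPM in parental libraries, with 1 of 4 tested higher and 2 lower. Endothelial markers summed to between 34.1 and 37.7 CPM in knockout and between 42.7 and 47.5 CPM in parental libraries, mostly from EMCN, with 3 of 6 higher and 2 lower. Epithelial markers summed to between 247 and 270 CPM in knockout and between 7.20 and 8.06 CPM in parental libraries, almost all from KRT8 and KRT18, with 2 of 4 tested higher and 1 lower. The epithelial gene that fell was EPCAM, with 0.0421 ± 0.0326 CPM in knockout and 0.432 ± 0.0447 CPM in parental libraries. CDH1 did not pass, with 0.119 ± 0.0151 CPM in knockout and 0.179 ± 0.0563 CPM in parental libraries. The part of these markers in the antigen results was not tested.

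Of the 8 antigens 7 were lower in the knockout and 1, ENPP1, was higher. LINGO1, ADGRG2 and LIPI lay near 1% of their parental level or below it, STEAP1, STEAP2 and IL1RAP lay between, and CD99 fell least. In bulk RNA, fewer cells with a transcript and less of it per cell cannot be told apart. Together the 8 genes took 0.0300% ± 0.0000909 of all estimated counts in knockout libraries and 0.225% ± 0.00266 in parental libraries (SD, n = 3 each, as for every ± given here). All 8 passed the edgeR quasi-likelihood test at an adjusted p under 0.05, which 73.8% of the 28485 tested genes did, 37.5% as lower and 36.3% as higher. These shares over all tested genes apply to every count of risen and fallen genes below. In 7 genes all knockout libraries were below all parental ones, as in 39.5% of tested genes, and for ENPP1 all were above, as in 37.1%. The median log2 fold change was -3.46 over the 8 antigens and -0.06 over all tested genes.

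**Figure D1:**
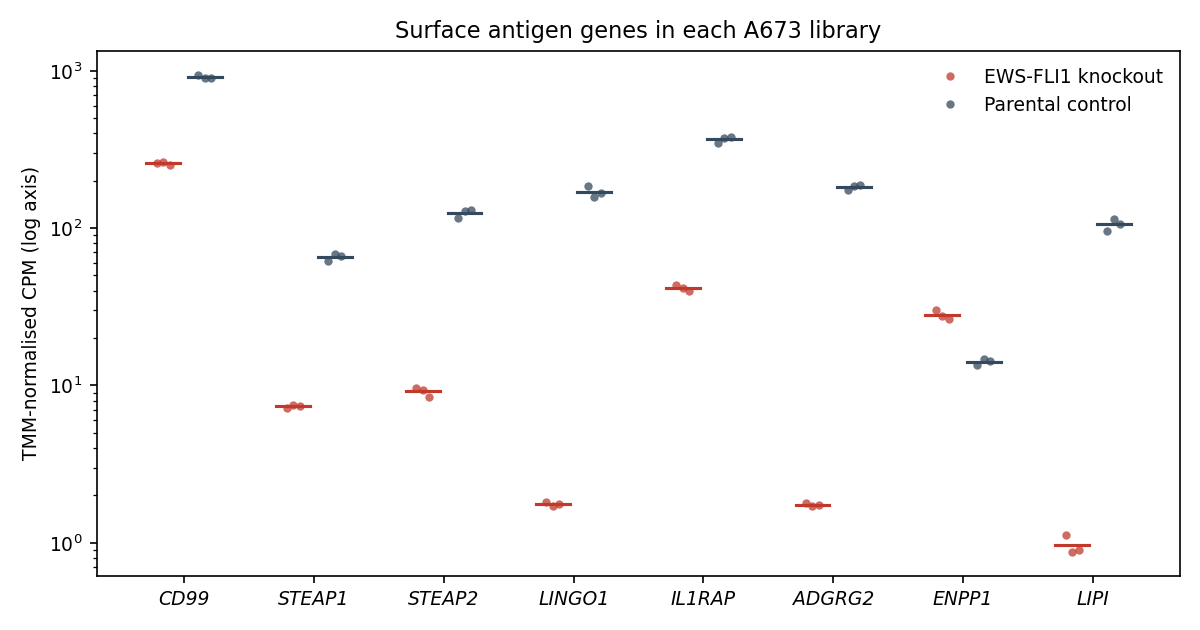
TMM-normalised CPM on a log axis for the 8 antigen genes, with 3 knockout libraries (red, left) and 3 parental libraries (dark, right) as points and their mean as a line. The groups do not overlap for any of the 8 genes, and ENPP1 is the gene whose knockout libraries are above the parental ones.

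CD99, on chromosome X from 2691295 to 2741309 (plus strand, GRCh38.p14) and on the matching part of Y, was the most abundant of the antigens per kb of transcript in both genotypes. It held 259.9, 261.7 and 251.1 CPM in the knockout libraries, against 945.7, 904.2 and 894.1 CPM in the parental libraries. Every knockout library was clearly below every parental one, and the fall was the smallest of the 7. The log2 fold change was -1.83 (SE 0.049, 95% interval -1.93 to -1.73, edgeR adjusted p = 3.75e-19). The mean of 258 CPM in the knockout shows that CD99 RNA was still plentiful there. Its paralog CD99L2 moved the other way, to 141 ± 3.94 CPM in knockout libraries, against 58.9 ± 1.56 CPM in parental libraries (log2 fold change 1.26, SE 0.048, edgeR adjusted p = 3.23e-16). XG, the other relative and the neighbouring gene 10.7 kb away, fell to 0.668 ± 0.0874 CPM in knockout libraries, against 70.2 ± 2.79 CPM in parental libraries. CAV1, caveolin 1, which is reported to act with CD99, fell by 1.98 on the log2 scale (SE 0.049). PECAM1, an endothelial adhesion molecule, rose by 5.77 (SE 0.12). Of the 6 other genes listed for CD99, all tested, 2 rose, 3 fell and 1 did not pass.

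STEAP1 and STEAP2 lie 46.9 kb apart on the plus strand of chromosome 7, from 90154469 to 90164827 and from 90211740 to 90243408. STEAP1, an antigen also of prostate cancer, held 7.20, 7.52 and 7.35 CPM in the knockout libraries, against 62.2, 68.5 and 66.3 CPM in the parental libraries. Its log2 fold change was -3.16 (SE 0.056, 95% interval -3.27 to -3.04, edgeR adjusted p = 2.28e-22), with no overlap between the groups. STEAP2, a reductase of iron and copper, held 9.69, 9.35 and 8.48 CPM in the knockout libraries, against 115.9, 128.9 and 130.0 CPM in the parental libraries. It fell further than its neighbour, with a log2 fold change of -3.77 (SE 0.064, 95% interval -3.90 to -3.63, edgeR adjusted p = 3.84e-22). The ratio of STEAP2 to STEAP1 counts within a library, which no scaling can change, was 1.35, 1.24 and 1.15 in the knockout and 1.86, 1.88 and 1.96 in parental libraries. The ratio was thus lower in each knockout library than in every parental one, where the exact two-sided permutation test of 3 against 3 cannot give a p below 0.10. STEAP1B, a near copy of STEAP1 with which reads can be shared, held 10.8 ± 0.429 CPM in knockout and 17.0 ± 0.209 CPM in parental libraries (log2 fold change -0.65, SE 0.056). An antisense RNA that overlaps STEAP1, STEAP2-AS1, held 0.00391 ± 0.00678 CPM in knockout and 0.105 ± 0.0195 CPM in parental libraries. The knockout mean lay below a floor of 3 counts, which is 0.0109 to 0.0117 CPM in those libraries. No strand setting is known, so its reads may be shared with STEAP1.

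STEAP3 and most listed genes of iron and copper handling rose, unlike STEAP1 and STEAP2. STEAP3, the reductase of the transferrin cycle, rose to 94.5 ± 2.04 CPM in knockout libraries, against 7.30 ± 0.406 CPM in parental libraries (log2 fold change 3.69, SE 0.057, edgeR adjusted p = 1.51e-23). STEAP4 was low at 0.110 ± 0.0134 CPM in knockout and 0.164 ± 0.0353 CPM in parental libraries and did not pass (edgeR adjusted p = 0.0634). With total counts only, and with upper quartile factors, 2 of the 3 relatives of STEAP1 and STEAP2 were lower, STEAP4 among them. The handling list held 14 genes of uptake, storage, export and regulation. Of these 11 rose and 3 fell, against 36.3% and 37.5% of all tested genes. The median log2 fold change of the 14 was 1.11. With total counts only 10 rose and 4 fell, SLC31A1 being the gene that changed sign. ACO1, an iron-regulatory protein, rose by 2.87 (SE 0.051). CYBRD1, a ferric reductase of the plasma membrane, rose by 4.52 (SE 0.059). TFRC, the transferrin receptor, rose by 1.76 (SE 0.051), and SLC39A14, a carrier of zinc and iron, by 2.17 (SE 0.051).

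**Figure D2:**
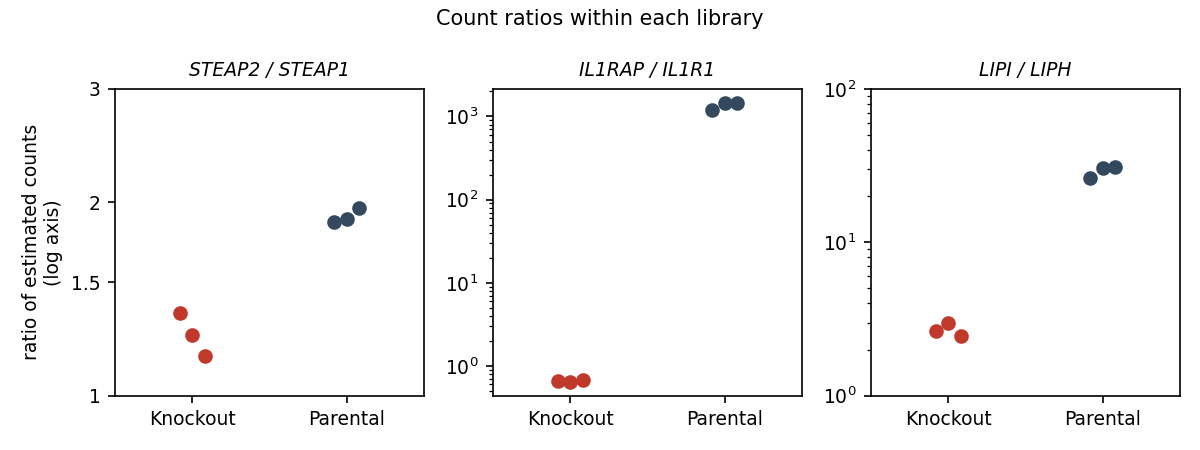
Ratios of estimated counts of 2 genes within each library on log axes, with 3 knockout libraries (red, left) and 3 parental libraries (dark, right) in each panel. The ratio of STEAP2 to STEAP1 is 1.15 to 1.35 in the knockout and 1.86 to 1.96 in parental libraries, and the IL1RAP to IL1R1 ratio is 0.648 to 0.681 in the knockout and 1209 to 1454 in parental libraries. The LIPI to LIPH ratio is 2.46 to 2.97 in the knockout and 26.3 to 30.8 in parental libraries. LIPI counts in the knockout and IL1R1 counts in parental libraries lie at the low shares described in the text.

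LINGO1, on chromosome 15 from 77613027 to 77820900 (minus strand), encodes a leucine-rich repeat protein that forms a receptor complex with RTN4R and NGFR on neurons. It held 1.82, 1.70 and 1.76 CPM in the knockout libraries, against 184.5, 156.9 and 166.9 CPM in the parental libraries. The log2 fold change was -6.59 (SE 0.074, 95% interval -6.74 to -6.43, edgeR adjusted p = 1.19e-25), and the groups lay far apart. Its paralog LINGO2 changed less, with 15.95 ± 1.29 CPM in knockout and 31.5 ± 0.486 CPM in parental libraries (log2 fold change -0.98, SE 0.058, a gene named after its values were seen). Both partners named above fell as well. RTN4R, the Nogo receptor, had 3.54 ± 0.152 CPM in knockout and 18.6 ± 1.73 CPM in parental libraries (log2 fold change -2.39, SE 0.073). NGFR, the p75 neurotrophin receptor, had 4.48 ± 0.311 CPM in knockout and 26.9 ± 1.52 CPM in parental libraries (-2.59, SE 0.066). TNFRSF19, which can take the place of NGFR in the complex, rose instead and reached 8.79 ± 0.498 CPM in knockout libraries, against 0.0434 ± 0.0141 CPM in parental libraries (7.65, SE 0.14). Of the 13 other genes listed for the complex 11 were tested, of which 6 fell and 4 rose, and LINGO3 missed the threshold. The median of the 11 was -0.98. With total counts only 7 fell and 3 rose.

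IL1RAP, on chromosome 3 from 190514085 to 190659750 (plus strand), is the shared subunit that the receptors of interleukin 1, IL33 and the IL36 cytokines need in order to signal. It held 43.5, 41.4 and 39.6 CPM in the knockout libraries, against 349.6, 376.5 and 379.5 CPM in the parental libraries. The groups did not overlap, and the log2 fold change was -3.15 (SE 0.056, 95% interval -3.27 to -3.03, edgeR adjusted p = 1.84e-22). IL1R1, the ligand-binding subunit that pairs with it, went the opposite way, with 63.0 ± 4.38 CPM in knockout and 0.270 ± 0.0167 CPM in parental libraries (log2 fold change 7.87, SE 0.084, edgeR adjusted p = 3.16e-26). The count ratio of IL1RAP to IL1R1 was 0.652, 0.648 and 0.681 in the knockout libraries, against 1209, 1450 and 1454 in the parental libraries. Thus the parental cells carried the accessory subunit almost without IL1R1 RNA, and the knockout cells carried both. The mean parental count of IL1R1 was 0.629% of its knockout count, a share as low as those discussed below for LINGO1.

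IL1A and IL1B, the ligands of IL1R1, rose with it. IL1B held 51.4 ± 2.91 CPM in knockout and 0.270 ± 0.0187 CPM in parental libraries (log2 fold change 7.57, SE 0.081). IL1A held 17.7 ± 0.363 CPM in knockout and 0.331 ± 0.0309 CPM in parental libraries (5.74, SE 0.084). IRAK2, a kinase-like adaptor of the receptor, rose by 5.65 (SE 0.069). Of the 23 other genes listed for the receptor family and its signal 14 were tested. Of these 12 rose and 2 fell, against 36.3% and 37.5% of all tested genes. The median of the 14 was 1.55. With total counts only 10 rose and 3 fell, and IRAK4 and TRAF6 then had values below 0. IL1RAP is also reported to support cystine uptake in Ewing sarcoma cells. SLC7A11, the cystine carrier, fell to 45.6 ± 4.81 CPM in knockout libraries, against 164 ± 10.9 CPM in parental libraries (log2 fold change -1.85, SE 0.075, edgeR adjusted p = 6.35e-11). CTH, which makes cysteine from cystathionine, fell by 2.79 (SE 0.052). SLC3A2, the heavy chain that carries SLC7A11 to the membrane, fell by 0.86 (SE 0.051). Of 9 genes of cystine uptake and glutathione 5 fell and 4 rose, against 37.5% and 36.3% of all tested genes. The median of the 9 was -0.86. The direction of GCLC, GSS and GPX4 depended on the scaling, since with total counts only 8 fell and 1, GCLM, rose.

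ADGRG2, also called GPR64, lies on chromosome X from 18989307 to 19122956 (minus strand). It held 1.79, 1.72 and 1.73 CPM in the knockout libraries, against 175.7, 185.2 and 187.5 CPM in the parental libraries. The libraries of a genotype were tightly grouped, and the log2 fold change was -6.71 (SE 0.064, 95% interval -6.84 to -6.58, edgeR adjusted p = 8.26e-27). In its receptor group ADGRG6 fell to 0.314 ± 0.0633 CPM in knockout libraries, against 2.92 ± 0.106 CPM in parental libraries. ADGRG1 rose to 7.93 ± 0.196 CPM in knockout libraries, against 0.420 ± 0.0627 CPM in parental libraries (log2 fold change 4.23, SE 0.11). Of the 6 other genes of the group 3 were tested, of which 2 fell and 1 rose. PGF and MMP1, a growth factor and a collagenase reported to depend on ADGRG2 in Ewing sarcoma cells, moved in opposite directions. PGF held 58.2 ± 0.573 CPM in knockout and 74.0 ± 4.27 CPM in parental libraries (-0.35, SE 0.051, edgeR adjusted p = 2.37e-06). MMP1 held 78.7 ± 3.95 CPM in knockout and 17.8 ± 0.196 CPM in parental libraries (2.14, SE 0.052, edgeR adjusted p = 6.87e-20).

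LIPI, on chromosome 21 from 14108812 to 14210955 (minus strand), encodes a phospholipase that releases lysophosphatidic acid, and its RNA is otherwise found mainly in testis. It held 1.13, 0.876 and 0.896 CPM in the knockout libraries, against 96.3, 114.4 and 106.2 CPM in the parental libraries. The log2 fold change was -6.77 (SE 0.10, 95% interval -7.00 to -6.55, edgeR adjusted p = 1.11e-15). That interval overlaps that of ADGRG2, so the 2 falls are not ranked. Knockout replicate 1 was the highest of its group, and the groups did not overlap. LIPH, its close relative with the same product, fell to 0.361 ± 0.0627 CPM in knockout libraries, against 3.62 ± 0.150 CPM in parental libraries (-3.32, SE 0.13). LPL, the lipoprotein lipase, fell by 6.65 (SE 0.11). LIPG, the endothelial lipase, rose by 3.79 (SE 0.13). Of the 9 other secreted lipases 5 were tested. Of these 3 rose and 2 fell, against 36.3% and 37.5% of all tested genes. With total counts only 2 rose and 2 fell. Of 12 other genes of lysophosphatidic acid making, breakdown and sensing 7 fell and 4 rose, and LPAR5 missed the threshold. The median of the 12 was -0.48. Among its receptors LPAR1 rose to 176 ± 7.30 CPM in knockout libraries, against 21.7 ± 0.368 CPM in parental libraries (3.02, SE 0.052). LPAR4 fell to 0.102 ± 0.0227 CPM in knockout libraries, against 5.58 ± 0.508 CPM in parental libraries (-5.78, SE 0.15). PLPP3 and PLPP2, phosphatases of lysophosphatidic acid, moved apart, the first rising by 6.96 (SE 0.088) and the other changing by -2.34 (SE 0.076).

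The low knockout levels of LINGO1, ADGRG2 and LIPI were close to the smallest shares seen for any abundant gene. Their mean knockout counts were 0.709% of the parental counts for LINGO1, 0.651% for ADGRG2 and 0.623% for LIPI. Among 3987 genes with a mean of at least 20000 parental counts, the 20 with the lowest share kept between 0.532% and 0.648%, with a median of 0.617%. In the other direction the 20 lowest of 3249 genes kept a median of 0.586%. When these median shares of the other genotype were subtracted from every library, LINGO1 kept 100.3, 74.6 and 109.6 counts, ADGRG2 62.8, 49.1 and 72.0, and LIPI 60.4, 0 and 12.7 in the knockout libraries. The log2 fold changes then became -8.87, -9.61 and -10.1 (edgeR adjusted p of at most 5.36e-05). That of CD99 became -1.86, of STEAP1 -3.26, of STEAP2 -3.93, of IL1RAP -3.25 and of ENPP1 0.99. For these genes the subtraction could only enlarge a difference, so their directions were fixed in advance. The shares came from these same data, and LIPI is itself among the 20 genes behind the 0.617%. The lower group likewise held 0.647% of the counts of the higher one for XG, 0.688% for RBM11 and 0.617% for CD44. For NT5E it held 0.684%, for LPL 0.677%, for TNFRSF19 0.720% and for IL1B 0.772%. Of the Ewing sarcoma markers PRKCB kept 0.601% of its parental counts, PPP1R1A 0.652%, KCNN1 0.696% and BCL11B 0.958%. With the subtraction the median of the 10 such markers became -7.38. The fold changes given for these genes, and medians over them, are subject to the same limit. So are the LIPI to LIPH ratio in the knockout and the IL1RAP to IL1R1 ratio in parental libraries. Where these residual counts come from was not tested.

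**Figure D3:**
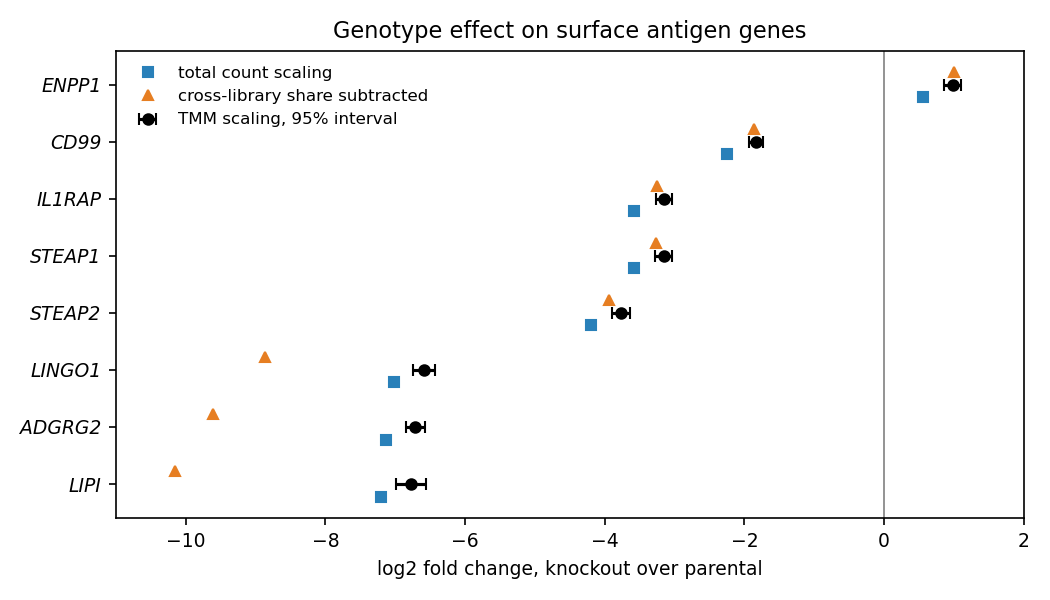
Log2 fold change of knockout over parental for each antigen gene, with the edgeR estimate and its 95% interval (black), the value with libraries scaled by total count (blue squares) and the value after subtraction of the cross-library share (orange triangles). All signs agree across the 3 settings, though subtraction could not have changed a sign here. It moves LINGO1, ADGRG2 and LIPI to -8.87, -9.61 and -10.1.

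ENPP1, on chromosome 6 from 131808020 to 131895155 (plus strand), is an ectoenzyme that splits ATP into AMP and pyrophosphate and also degrades the signalling molecule cGAMP. It was the antigen that rose, with 30.0, 27.6 and 26.3 CPM in the knockout libraries, against 13.4, 14.7 and 14.3 CPM in the parental libraries. The groups did not overlap, and the log2 fold change was 0.98 (SE 0.059, 95% interval 0.86 to 1.10, edgeR adjusted p = 1.06e-12). That size depends on the scaling, since it was 0.56 with total counts only and 0.78 with upper quartile factors, both past the test. 3 enzymes that act on its products or on what follows from them rose further. NT5E, which turns AMP into adenosine, rose by 7.74 (SE 0.071), ADA, which removes adenosine, by 3.36 (SE 0.057), and ALPL, which clears pyrophosphate, by 1.49 (SE 0.050). ANKH, which brings pyrophosphate or its source out of the cell, rose by 2.70 (SE 0.053). Of the 15 other genes listed for extracellular nucleotides and pyrophosphate 12 rose and 3 fell, against 36.3% and 37.5% of all tested genes. The median of the 15 was 1.49, and with total counts only 9 rose and 5 fell. Within its own family ENPP2, which makes lysophosphatidic acid, was barely detected, with 0.151 ± 0.0294 CPM in knockout and 0.00935 ± 0.00883 CPM in parental libraries. Of the 6 relatives 4 were tested, of which ENPP2 rose, ENPP3 and ENPP4 fell and ENPP6 did not pass, all at less than 0.5 CPM.

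Levels were set between genes per kb of the longest coding transcript in GENCODE release 29, which may not be the transcript these cells use. On that scale (CPM per kb) the knockout order was CD99 at 199.5, IL1RAP at 7.67, STEAP1 at 5.60, ENPP1 at 3.75, STEAP2 at 1.30, LIPI at 0.585, LINGO1 at 0.576 and ADGRG2 at 0.363. LIPI and LINGO1 were the neighbours whose libraries overlapped. The knockout levels of LIPI, LINGO1 and ADGRG2 lie at the low shares given above, so their order there is subject to the same limit. The parental order was CD99 at 708.5, IL1RAP at 68.1, LIPI at 63.9, LINGO1 at 55.5, STEAP1 at 50.001, ADGRG2 at 38.1, STEAP2 at 17.8 and ENPP1 at 1.90 CPM per kb. There IL1RAP and LIPI overlapped, as did LIPI with LINGO1 and LINGO1 with STEAP1, so the order among these was not resolved. Both orders depend on the length used. With the median length of coding transcripts LINGO1 would stand at 2.99 CPM per kb in knockout and 288.2 in parental libraries, IL1RAP at 19.4 in knockout and 171.7 in parental libraries, and STEAP2 at 4.06 in knockout and 55.2 in parental libraries. On that scale LINGO1 would stand above IL1RAP in parental libraries, and STEAP2 above STEAP1 in parental libraries and above ENPP1 in the knockout.

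**Figure D4:**
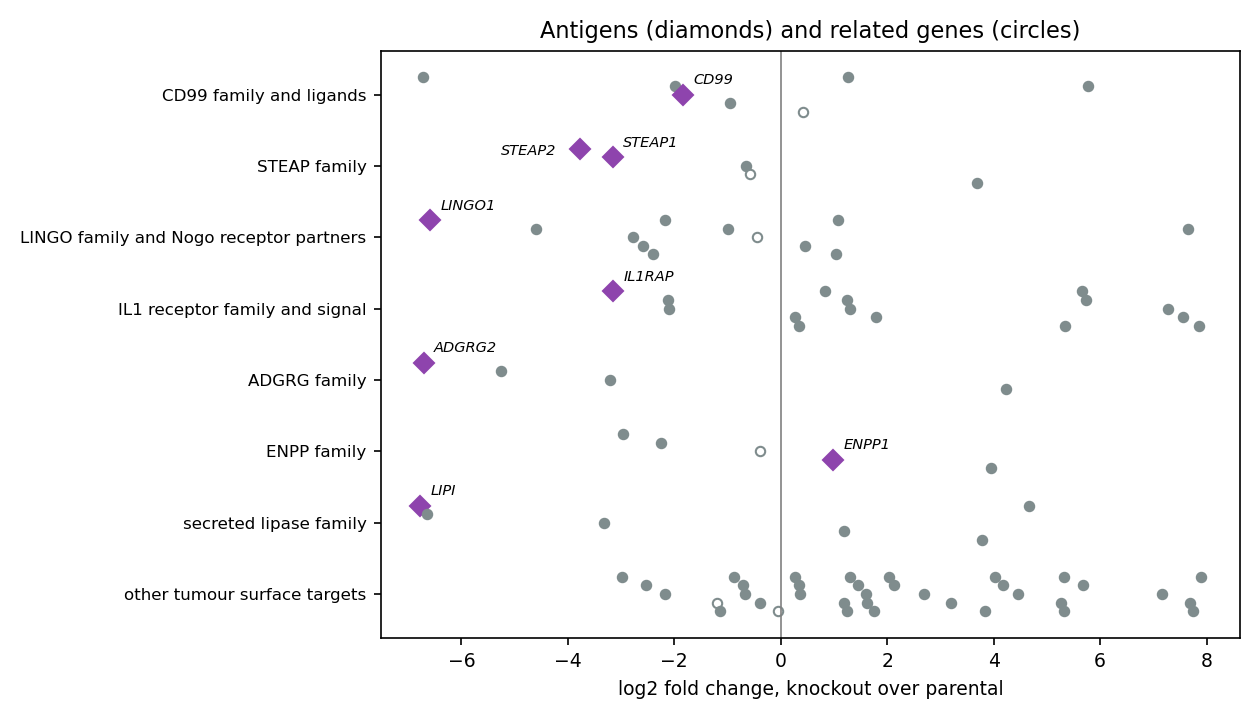
Log2 fold change of knockout over parental for the antigen genes (purple diamonds) and the other tested genes of their families and pathways (grey circles, open where the edgeR test was not passed), by list. Relatives lie on both sides of 0 in each list shown, and 26 of the 36 other tumour surface targets passed the test as higher. Over all tested genes 36.3% did.

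Other surface proteins that are studied as targets in sarcomas and other tumours went mostly the other way. Of 36 such genes 26 rose, 8 fell and 2 stayed short of the threshold. Over all tested genes 36.3% rose and 37.5% fell. The median of the 36 was 1.61 (log2). With total counts only 23 rose and 11 fell, and IGF1R, ERBB2 and KIT changed sign. CD44, the hyaluronan receptor, rose to 969 ± 56.7 CPM in knockout libraries, against 4.08 ± 0.222 CPM in parental libraries. L1CAM, an adhesion molecule of neural cells, reached 422 ± 12.9 CPM in knockout libraries, against 2.95 ± 0.151 CPM in parental libraries. NCAM1, another, reached 613 ± 31.5 CPM in knockout libraries, against 15.4 ± 0.148 CPM in parental libraries. The genes named here were those with the smallest adjusted p, and the 8 that fell are not among them.

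Position along the chromosome was compared with the nearest 2 protein-coding genes on each side of each antigen, a choice made after results were known. Beside the antigens themselves 27 such genes are given, of which 19 were tested, with 12 lower, 6 higher and 1 not passed. Over all tested genes 37.5% were lower and 36.3% higher. RBM11, an RNA-binding protein 5.2 kb from LIPI, had 2.02 ± 0.140 CPM in knockout and 200.8 ± 12.01 CPM in parental libraries, and its log2 fold change of -6.63 (SE 0.072) was close to that of LIPI. Both lie at the low shares described above. There the 71 abundant genes that kept under 1% had a median of -6.63, so this closeness is not particular to the pair. PHKA2, a phosphorylase kinase subunit 5.2 kb from ADGRG2, fell by 1.92 (SE 0.057), much less than ADGRG2. GYG2, a glycogenin 87.6 kb from CD99, fell by 2.74 (SE 0.053). CFAP69, a cilium protein 1.8 kb from STEAP2, fell by 0.87 (SE 0.10). Beside LINGO1 the 3 neighbours given rose, among them TBC1D2B, a GTPase regulator, by 2.29 (SE 0.049). ENPP1 lies 53.0 kb from CCN2, a matricellular growth factor, which held 467 ± 6.74 CPM in knockout and 3.49 ± 0.0744 CPM in parental libraries (7.06, SE 0.061), while ENPP3 on its other side fell by 2.96 (SE 0.28).

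**Figure D5:**
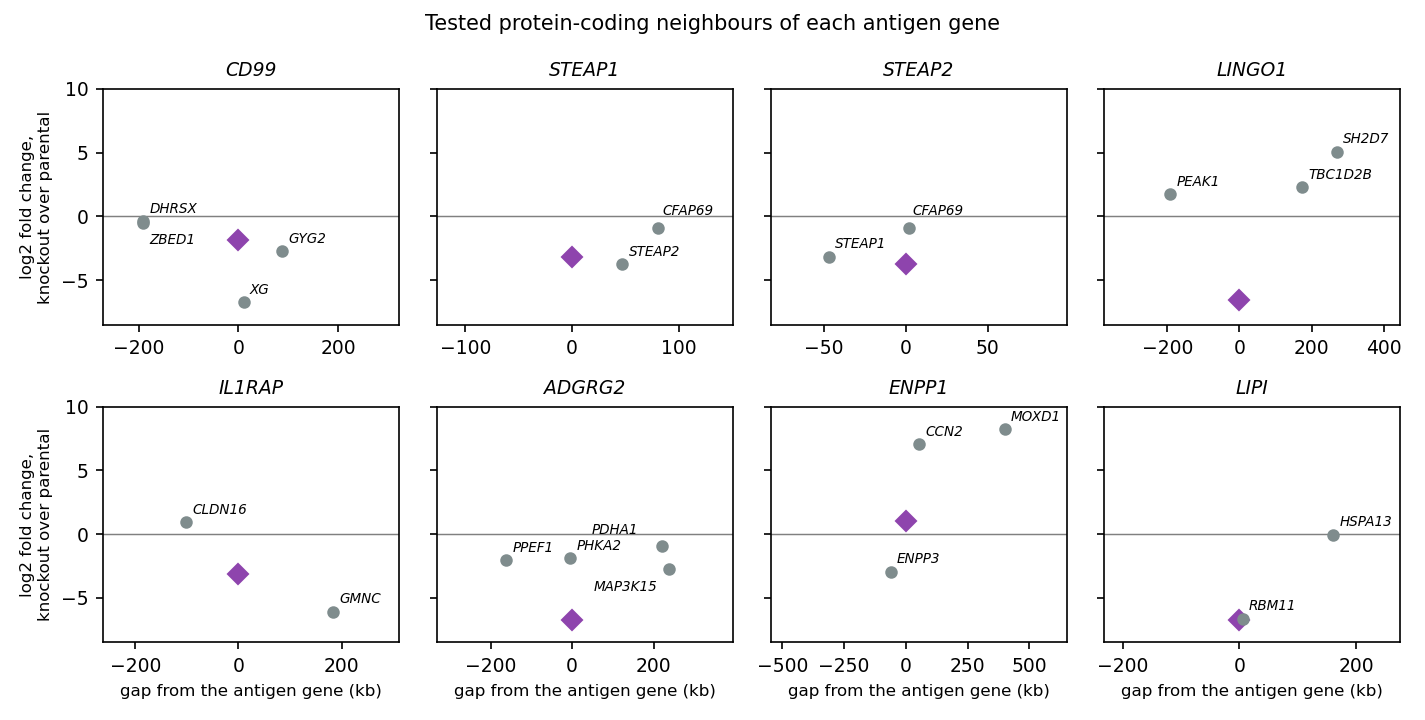
Log2 fold change of knockout over parental for each antigen gene (diamond, at 0) and its nearest tested protein-coding neighbours (grey circles) against the gap in kb along the chromosome. RBM11 lies on LIPI at -6.63, a value common among the most deeply fallen genes, whereas the 3 neighbours drawn for LINGO1 lie between 1.75 and 5.07. STEAP1 and STEAP2 appear as each other's neighbour.

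Genes with the most similar profiles over the 6 libraries were sought among 11436 named genes of at least 5 CPM, by the Euclidean distance between mean-centred log2 values. The nearest to CD99 were CCDC34 and SPAG5, with distances of 0.0476 and 0.0558. STEAP1 was nearest to TXNIP and SLC7A2 (0.0655 and 0.116), and IL1RAP to CPVL and SLC7A2 (0.0963 and 0.0977). SLC26A2 and PPM1E were nearest to STEAP2, PPP1R1A and ALX4 to LINGO1, UGT3A2 and TSPAN8 to ADGRG2, GPR174 and DAB1 to LIPI, and BBS9 and LNX2 to ENPP1. Those of LINGO1, ADGRG2 and LIPI had log2 fold changes between -6.81 and -6.39. These lie near the median of -6.63 given for abundant genes that kept under 1%, so nearness there is not particular to them.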

How the data were processed

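The authors deposited estimated counts per gene for 6 libraries, and the submitters' processing notes name kallisto 0.48.0 and hg38. The sources used here do not give the annotation release, the summing of transcripts to genes or a strand setting, so overlapping genes and near copies such as STEAP1B may share reads. Between 53.3% and 56.6% of a library's values were whole to within 1e-06. Counts were rounded and analysed with edgeR 4.0.16 in R 4.3.3, using filterByExpr (minimum count 10, total 15), TMM factors and a robust quasi-likelihood fit of genotype alone. P-values are two-sided and were adjusted over 28485 genes by Benjamini-Hochberg, with a threshold of 0.05. The SE was computed as the absolute log2 fold change divided by the square root of the test's F value. Intervals were built from that SE. Counts varied between replicates with a biological coefficient of variation of 7.53%. The detection floor, taken as 3 counts, lay between 0.00752 and 0.0117 CPM and covers counting error only. Positions and sequences are from RefSeq.

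In simulated data for the knockout comparison, with 28485 genes of which 50 were altered at each fold, the fit found 16% of those at 1.2, 44% of those at 1.5, 76% of those at 2 and 88% of those at 4. It also called 4 of the 28285 left unaltered. Far fewer genes were altered there than the 73.8% called in the data, so these rates do not describe the real comparison. Alternatives were other scalings and filters, unrounded counts, DESeq2 1.42.0, voom in limma 3.58.1, a replicate term, each library left out and subtraction of the cross-library share. Replicates differed by more than sampling noise, with a chi-square per degree of freedom from 11.1 to 78.1.

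The antigens and gene lists were chosen with earlier results of these data known. Genes were named if they were antigens, among the 4 smallest adjusted p of a list at a mean of at least 1 CPM, direct partners, EWSR1 or FLI1, or among the 2 nearest profiles (log2 of CPM plus 0.5). The chromosomal neighbours, genes that changed sign, antisense RNAs, LINGO2, STEAP4, EPCAM, CDH1, MS4A1 and ENPP3, ENPP4 and ENPP6 were named after their values were seen, as were LINGO3 and LPAR5. One chromosomal neighbour is not reported here.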

Additional observations from a re-analysis of the deposited data

How the results depend on the processing

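All 8 antigens kept their direction and stayed past the test under each of the 17 alternatives. Under subtraction of the cross-library share the direction could not have changed. Leaving out 1 library at a time, the log2 fold change ran from -1.83 to -1.78 for CD99, from -3.17 to -3.11 for STEAP1, from -3.80 to -3.70 for STEAP2, from -6.62 to -6.50 for LINGO1, from -3.17 to -3.10 for IL1RAP, from -6.72 to -6.68 for ADGRG2, from 0.94 to 1.04 for ENPP1 and from -6.88 to -6.69 for LIPI. Scaling by total count only moved the median of all genes by -0.42 and gave 7370 higher and 14949 lower genes, so that 33.0% of calls were higher in place of 49.1%. Upper quartile factors moved it by -0.20, with 40.5% of calls higher. Requiring 1 CPM in 3 libraries left 15383 genes, of which 6650 were higher and 6975 lower, against 10328 and 10687 among 28485. FLI1 changed sign with total counts only (-0.040), as did the muscle marker MYH3 (-0.16, against 0.26). MYH3 passed as higher with DESeq2 size factors (0.29, edgeR adjusted p = 0.0452), with the DESeq2 Wald test (0.29, adjusted p = 0.0453) and without knockout replicate 1 (0.40, edgeR adjusted p = 0.00219). HSPA13, a neighbour of LIPI, ran from -0.076 to 0.021 as single libraries were left out and was above 0 without knockout replicate 3 or parental replicate 2, against -0.038 with all libraries. It passed as lower with total counts only (-0.46, edgeR adjusted p = 7.99e-06) and with upper quartile factors (-0.24, edgeR adjusted p = 0.00114). Replicate numbers are shared by the genotypes but did not pair the libraries, since deviations of same-numbered libraries correlated at -0.16, -0.06 and 0.03. With the replicate block 10041 genes were higher and 10377 lower, and all 8 antigens passed. One alternative, with identical rows kept once, was chosen after seeing the data and changed no antigen's call.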
